A study of Mus musculus with 4 samples.

Results

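The genes described here are 10 interferon-inducible genes grouped as viral restriction factors, some of whose products block viruses directly while others act on signalling or cell survival: Mx1, Mx2, Rsad2, Bst2, Samhd1, Isg20, Ifi35, Nmi, Rtp4 and Shisa5. They were taken by symbol from the count files, and all 10 were found among the 18256 symbols counted. RNA was measured in 4 libraries of macrophages grown from wild-type mouse bone marrow. All cells were differentiated for 7 days in macrophage colony-stimulating factor (MCSF, 20 ng/ml). The 2 M0 libraries come from cells left unstimulated in MCSF. The 2 M1 libraries come from cells given 20 ng/ml interferon-gamma (IFN-γ) and 100 ng/ml bacterial lipopolysaccharide (LPS) together for 24 h. Neither agent was given alone, so their parts in any difference cannot be told apart. The mouse strain and whether MCSF stayed in the M1 medium are not stated. Nothing in the labels ties the 2 replicates of a group to different mice or dishes. A p-value here thus reflects variation among these 4 libraries, all of which could be technical.

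Interferons signal through paired receptors and JAK kinases to transcription factors in the nucleus. IFN-γ acts chiefly through gamma-activated sites (GAS). LPS makes macrophages secrete interferon-beta, which acts chiefly through interferon-stimulated response elements (ISRE), bound by a complex that holds STAT2 and IRF9. Several proteins of the set act at different steps of a virus cycle: incoming nucleocapsids (Mx), reverse transcription (SAMHD1), viral RNA synthesis and stability (viperin, ISG20, RTP4) and release of particles (tetherin). NMI and IFI35 bind each other and modulate interferon and inflammatory signalling.

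The stretches upstream of 3 members are shown because they hold the letters of these elements next to genes that rose in M1. RefSeq windows from 250 bases before to 50 bases after a start site (GRCm38.p6) were at hand for 7 of the members, 13 windows in all. They were searched for the ISRE core (GAAA, any 2 bases, GAAA) on both strands and for the GAS letters TTCNNNGAA, a palindrome. Positions count from the start site of the window. Each stretch runs in the direction of transcription and ends before the first annotated base of the gene, with the matches in capitals. The stretches are chr12:26456453-26456652 for Rsad2 (minus strand), chr8:71537473-71537672 for Bst2 (minus strand) and chr7:78913224-78913395 for Isg20 (plus strand).
Rsad2: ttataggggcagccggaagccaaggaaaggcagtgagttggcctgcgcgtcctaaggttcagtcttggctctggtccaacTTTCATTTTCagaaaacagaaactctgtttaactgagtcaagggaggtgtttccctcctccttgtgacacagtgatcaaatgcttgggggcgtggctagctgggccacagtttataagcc
Bst2: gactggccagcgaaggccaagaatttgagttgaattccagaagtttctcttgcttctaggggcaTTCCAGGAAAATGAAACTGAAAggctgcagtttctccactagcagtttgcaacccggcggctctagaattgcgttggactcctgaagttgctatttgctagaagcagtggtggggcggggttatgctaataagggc
Isg20: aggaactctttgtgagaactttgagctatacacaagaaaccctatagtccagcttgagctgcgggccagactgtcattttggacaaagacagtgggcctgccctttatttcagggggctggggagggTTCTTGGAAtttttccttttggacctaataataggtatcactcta

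The capitals of Rsad2 are an ISRE core on the opposite strand that begins 120 bases before the start. In Bst2 a GAS beginning at -136 overlaps the first of 2 ISRE cores, which begin at -130 and -124 and overlap each other. In Isg20 the capitals are a GAS beginning at -73 from the window's start site at 78913424. The printed stretch stops earlier, before 78913396, where RefSeq places the first base of the gene. Windows of 3 of the 7 members held an ISRE core (Rsad2, Bst2 and Shisa5). Those of 5 held a GAS (Bst2, Samhd1, Isg20, Ifi35 and Shisa5). Both matches of Shisa5, in 1 of its windows, and the GAS of Ifi35 lie after the start. Among all 32851 windows, 3.44% held the ISRE core and 8.3% the GAS. Over the 9974 tested genes with a window, 405 (4.06%) had an ISRE core, and 42.5% of these were called higher in M1, against 23.8% of the genes without one. The same shares were 29.8% and 24.1% for the GAS, which was in windows of 816 genes. A match is a description of letters in a window, and these libraries did not measure binding.

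All 10 members were tested and all 10 were higher in M1, where 24.2% of the 12966 tested genes were higher and 48.2% were called in either direction (edgeR quasi-likelihood test, adjusted p under 0.05 over all tested genes). Both M1 libraries lay above both M0 libraries for every member, a separation seen in this direction in 37.0% of tested genes and in either direction in 74.9%. All 10 members rose at least 2-fold, against 9.93% of tested genes. Folds of at least 4 were reached by 9 members, against 5.13% of tested genes, and folds of at least 8 by 7 members, against 3.03%. These counts depend on the scaling. With unadjusted library totals, the log2 fold changes of Shisa5 (0.876), Samhd1 (1.849) and Nmi (2.751) were short of 2-fold, 4-fold and 8-fold. Nmi was also short of 8-fold without M0 replicate 1 (2.755), without M1 replicate 1 (2.85) and with a stricter low-count filter (2.998). The median log2 fold change was 3.69 in the set and -0.02 over all tested genes. These genes were listed for being induced by interferon, so their shared direction is not independent evidence. In counts scaled to library depth (CPM, on library totals adjusted by TMM factors), the set summed to 625 and 689 CPM in the M0 libraries and to 5667 and 5349 CPM in the M1 libraries. Its share of all counts was 0.0687% and 0.0746% in M0 and 0.516% and 0.493% in M1.

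**Figure D1:**
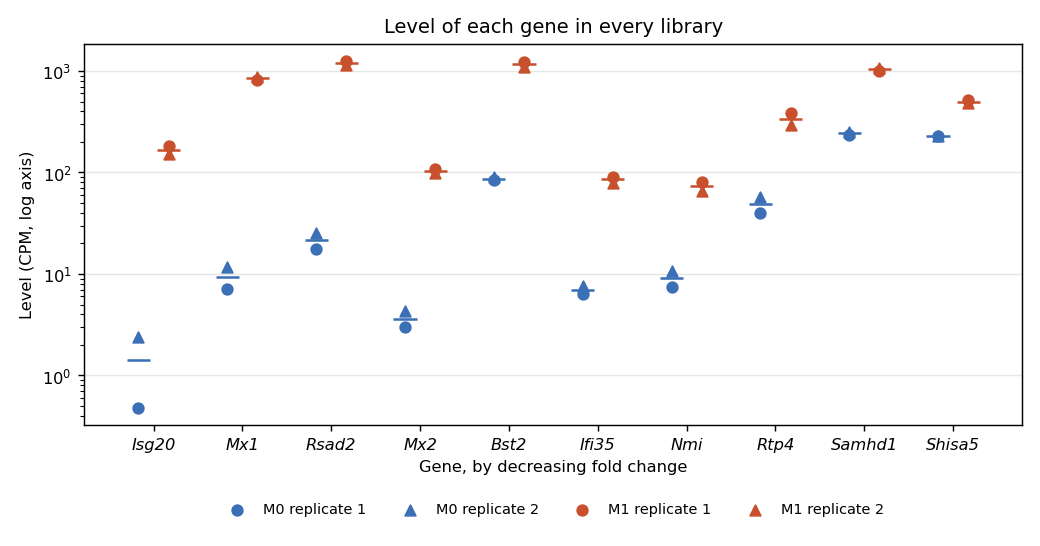
Level of each of the 10 genes in every library in CPM on a log axis, with circles for replicate 1, triangles for replicate 2 and bars for the group mean. Both M1 libraries lie above both M0 libraries for every gene, and the gap narrows from Isg20 (0.479 and 2.38 against 184 and 151 CPM) to Shisa5 (228 and 227 against 513 and 481 CPM).

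The Mx genes encode dynamin-like GTPases that trap viral nucleoprotein complexes, MX1 in the nucleus and MX2 in the cytoplasm of mouse cells. Many laboratory strains carry inactivating changes in both genes. For this assembly of the C57BL/6J strain, RefSeq classes both as transcribed pseudogenes, while GENCODE M21 lists Mx1 as protein-coding and Mx2 as a polymorphic pseudogene. Counts therefore show transcripts and not whether a working protein was made.

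Mx1 (chromosome 16, 97447035 to 97462907, minus strand) stood at 7.05 and 11.8 CPM in M0 and at 821 and 874 CPM in M1. It rose 91.0-fold (95% interval 67.2 to 123, adjusted p = 6e-10), and the lower M1 library lay far above the higher M0 library. Mx2 (chromosome 16, 97535308 to 97560900, plus strand) stood at 2.97 and 4.29 CPM in M0 and at 108 and 98.6 CPM in M1, a 28.7-fold rise (22.0 to 37.4, adjusted p = 1.99e-09). The intervals of the 2 folds do not overlap. Per kilobase of exon, the level of Mx1 was 2.26 and 2.62 times that of Mx2 in the M0 libraries and 7.26 and 8.46 times in the M1 libraries. Only 4.37% of the 50-base words of Mx1 transcripts occur in other genes, Mx2 among them, and 4.38% of those of Mx2, all in Mx1. Read length and the handling of reads that match both genes are not given in the sources used here. With Mx1 far more abundant in M1, the part of shared reads in the Mx2 counts was not tested.

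Rsad2 encodes viperin, a radical SAM enzyme that turns CTP into a nucleotide that ends viral RNA chains. Its 2 M0 libraries held 17.8 and 25.2 CPM and its M1 libraries 1245 and 1139 CPM (chromosome 12, 26442746 to 26456452). The rise was 55.7-fold (43.2 to 71.8, adjusted p = 4.19e-10), which placed Rsad2 at rank 77 by level among all genes in M1, after rank 6894 in M0. Its mean CPM in M1 was the highest of the set, but its M1 libraries overlapped those of Bst2 (1232 and 1097 CPM). The neighbour of Rsad2 12.8 kb away is Cmpk2, a mitochondrial UMP-CMP kinase. Cmpk2 stood at 13.7 and 18.7 CPM in M0 and 731 and 697 CPM in M1 (log2 fold change 5.47, SE 0.15, adjusted p = 3.24e-10). The CPM of Rsad2 was 1.3 and 1.35 times that of Cmpk2 in M0 and 1.7 and 1.63 times in M1.

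Bst2 encodes tetherin, a membrane protein that holds budding virions on the cell surface (chromosome 8, 71534255 to 71537456). It was present before stimulation, at 84.2 and 89.8 CPM in M0, and reached 1232 and 1097 CPM in M1. The rise was 13.4-fold (11.3 to 15.9, adjusted p = 5.06e-10). Per kilobase of its 0.903 kb of joined exons, its level was the highest of the set in both groups, 93.2 and 99.5 CPM per kb in M0 and 1364 and 1215 CPM per kb in M1. BST2 is also the surface antigen by which plasmacytoid dendritic cells are sorted. Of 6 markers listed for those cells, 3 were tested, 1 was higher and 2 lower. Siglech, a defining one, fell from 129 and 91 counts in M0 to 0 and 5 counts in M1 (adjusted p = 9.13e-05). Ccr9 rose from 4 and 1 counts to 16 and 17 (adjusted p = 0.0155), Pacsin1 had 5 counts in M0 replicate 2 only, and Ly6d and Klk1 had none. The 6 markers summed to 116 to 125 CPM in M0 and 88.1 to 93.2 CPM in M1, nearly all of it Tcf4 (114 ± 5.85 and 89.5 ± 3.91 CPM; SD, n = 2, as for other group means). The part of such cells in the level of Bst2 was not tested.

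Samhd1 encodes an enzyme that destroys deoxynucleotides and so starves reverse transcription in myeloid cells (chromosome 2, 157097533 to 157135265). It was the member with the highest CPM in M0, at 231 and 253 CPM, and stood at 1010 and 1068 CPM in M1. The rise was 4.29-fold (3.68 to 4.99, adjusted p = 1.85e-08). Samhd1 supplied 36.9% of the set's summed CPM in M0 and 18.9% in M1, while Rsad2 went from 3.27% to 21.6%.

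Isg20 encodes an exonuclease that degrades single-stranded RNA (chromosome 7, 78913424 to 78920396). It had 10 and 41 counts in M0, or 0.479 and 2.38 CPM, and 184 and 151 CPM in M1. The fitted rise of 123-fold (74.0 to 205, adjusted p = 2.07e-08) was the largest of the set with all libraries and the least precise. The M0 libraries differed 4.96-fold from each other, and they set the size of the fold. Without M0 replicate 1 the log2 fold change was 6.14, and without M0 replicate 2 it was 8.43, against 6.95 with all libraries. Without M0 replicate 1, Mx1 (6.17) came before Isg20. No other member moved by more than 1.5 times in fold when a library was left out.

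**Figure D2:**
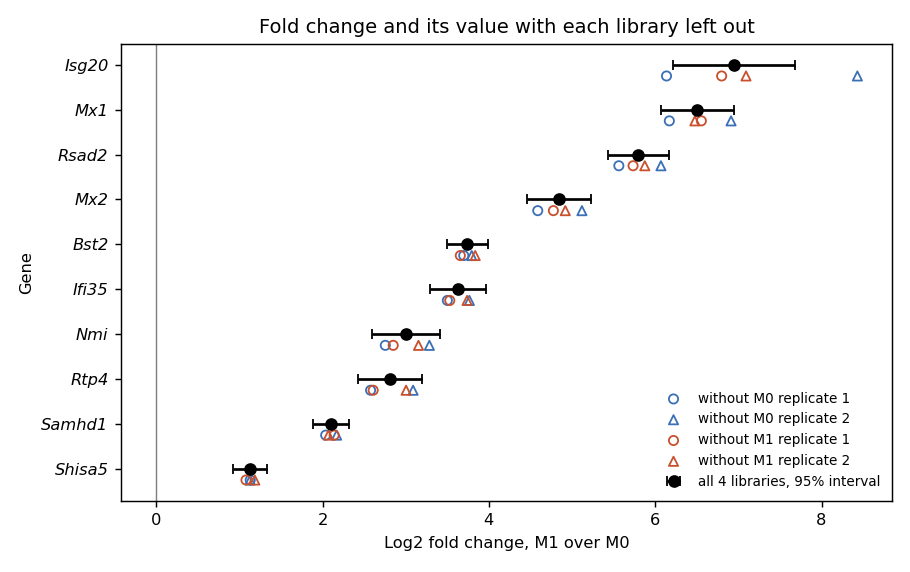
Log2 fold change of M1 over M0 for each gene, with its 95% interval from all 4 libraries (black) and its value with each library left out (open symbols, blue for a missing M0 library and red for a missing M1 library). Every value is above 0, and Isg20 shows the widest range, 6.14 to 8.43.

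Ifi35 and Nmi encode the interferon-induced partners IFP35 and N-myc and STAT interactor. Ifi35 (chromosome 11, 101448407 to 101458698) stood at 6.28 and 7.53 CPM in M0 and at 91.1 and 79.6 CPM in M1, a 12.4-fold rise (9.83 to 15.6, adjusted p = 6.45e-09). Nmi (chromosome 2, 51948487 to 51973494) stood at 7.48 and 10.8 CPM in M0 and at 80.1 and 65.4 CPM in M1, an 8.02-fold rise (6.05 to 10.6, adjusted p = 1.64e-07). The groups were apart for both genes, and the intervals of the 2 folds overlap. Per kilobase, Ifi35 stood at 0.973 and 0.81 times the level of Nmi in M0 and at 1.32 and 1.41 times in M1. An antisense gene, Gm11626, covers 16.8% of Ifi35 exon bases. The strand setting of the counting is not given in the sources used here, so reads from the pair cannot be told apart there.

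Rtp4, a receptor-transporting protein with zinc fingers, helps G protein-coupled receptors reach the cell surface and binds viral RNA (chromosome 16, 23520291 to 23614222). It stood at 40.0 and 56.9 CPM in M0 and at 384 and 295 CPM in M1. The rise was 7.02-fold (5.38 to 9.18, adjusted p = 1.85e-07). Its 2 M1 libraries stood further apart as a ratio than those of any other member, and the lower of them was still far above the higher M0 library. Gm45338, annotated as a processed transcript on the same strand, overlaps 13.9% of its exon bases.

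Shisa5 encodes Scotin, a protein of the endoplasmic reticulum that is also a p53 target and promotes cell death (chromosome 9, 109038565 to 109057777). It was already abundant at 228 and 227 CPM in M0 and reached 513 and 481 CPM in M1. The rise of 2.19-fold (1.89 to 2.52, adjusted p = 2.11e-06) was the smallest of the set. It stood at rank 1223 of 12966 by log2 fold change, where Isg20 stood at rank 88.

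Ordered by fold, the interval of Mx1 overlapped those of its neighbours Isg20 and Rsad2. The intervals of Isg20 (74.0 to 205) and Rsad2 (43.2 to 71.8) were apart. Those of Bst2, Ifi35, Nmi and Rtp4 overlapped from one to the next. The intervals were apart between Rsad2 and Mx2, Mx2 and Bst2, Rtp4 and Samhd1, and Samhd1 and Shisa5. Levels per kilobase of exon (GENCODE M21, all transcripts joined) ran in M0 from Bst2 through Shisa5, Samhd1, Rtp4, Rsad2, Nmi, Ifi35, Mx1 and Mx2 to Isg20, at 96.3 to 0.767 CPM per kb, a 126-fold span. Neighbours whose M0 libraries overlapped were Samhd1 with Rtp4, Rsad2 with Nmi, Nmi with Ifi35, and Mx2 with Isg20. In M1 the order was Bst2, Rsad2, Mx1, Rtp4, Shisa5, Samhd1, Isg20, Ifi35, Nmi and Mx2, at 1290 to 28.6 CPM per kb, a 45.2-fold span, and only Rtp4 and Shisa5 overlapped. The place of Samhd1 depends on the length used, since its joined exons span 9.15 kb and its longest transcript 3.93 kb. With longest transcripts, a choice added after seeing the data, Samhd1 moved from place 6 to place 3 in M1, at 265 CPM per kb. Mx1 moved there from place 3 to 4 and Rtp4 from 4 to 6. In M0, Shisa5 came before Bst2 (113 and 110 CPM per kb) and Nmi before Rsad2 (7.07 and 5.13 CPM per kb). On that length, Mx1 and Mx2 stood at 2.78 and 1.47 CPM per kb in M0 and at 250 and 41.7 CPM per kb in M1.

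**Figure D3:**
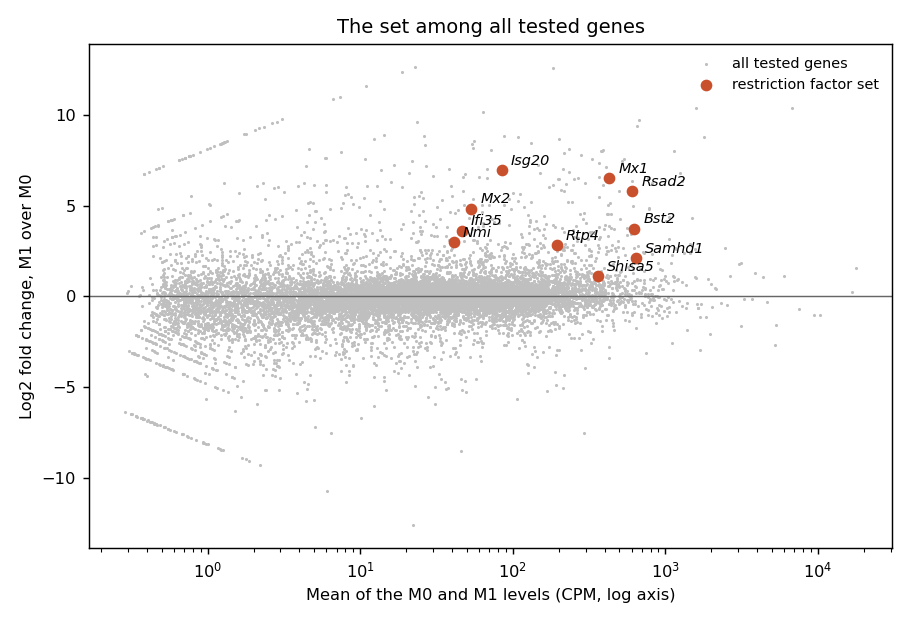
Log2 fold change of M1 over M0 against the mean of the M0 and M1 levels (CPM, log axis) for all 12966 tested genes (grey) and the 10 members (red). Members lie at or above 1.13 on the log2 scale, from Shisa5 to Isg20 at 6.95, and the grey points lie on both sides of 0, with 3140 genes called higher and 3108 lower.

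The M0 libraries were not equal for these genes. M0 replicate 2 was above M0 replicate 1 for 9 of the 10 members, all but Shisa5, against 51.6% of tested genes. The median log2 ratio of replicate 2 to replicate 1, on CPM plus 1, was 0.443 in the set and 0.00762 over tested genes. In the M1 libraries replicate 2 was above replicate 1 for 2 members, Mx1 and Samhd1, with a median log2 ratio of -0.148. Replicate 2 was also the higher M0 library for 12 of 17 interferon signalling genes and 17 of 24 other antiviral genes described next. Their medians were 0.0542 and 0.0398, far smaller than that of the set. In M1, replicate 2 was the higher library for 9 and 17 of these genes, with medians of 0.00987 and 0.0594. Among the strongly induced genes of those lists, Ifi44 stood at 4.08 and 7.13 CPM in the M0 libraries. Usp18 stood there at 4.75 and 6.95 CPM and Cmpk2 at 13.7 and 18.7 CPM. Stat2 (73.1 and 73.9 CPM) and Jak2 (62.0 and 63.1 CPM) differed little between the M0 libraries. Some induced genes outside the set thus shared the direction of the offset and others were nearly level. The cause of the offset was not tested.

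The genes that carry interferon signals rose for the most part. Of 19 listed, 17 were tested, 12 were higher, 2 lower and 3 did not pass, with a median log2 fold change of 1.12. The share called higher was 70.6%, against 24.2% over all tested genes, where 24.0% were lower. The ligand gene Ifnb1 had no count in M0 and 4 counts in each M1 library, and Ifng had counts, 6 of them, only in M1 replicate 2. Receptor genes split: Ifnar1, Ifnar2 and Ifngr2 rose (log2 fold changes 1.12, 0.87 and 1.05), and Ifngr1, the ligand-binding chain for IFN-γ, fell from 214 ± 7.53 to 93.2 ± 3.04 CPM (-1.20, SE 0.097, adjusted p = 1.78e-06). Jak2, a kinase of the IFN-γ receptor, rose by 3.16, and Jak1 did not pass (0.055). Several transcription factor genes of the pathway were higher. Stat2 rose from 73.5 ± 0.614 to 664 ± 57.5 CPM (3.17), and Irf9 and Irf1 by 1.38 and 1.37. Irf7, the amplifier of type I interferon genes, rose by 6.53. The feedback inhibitors Usp18 and Socs1 rose by 6.52 and 5.25. Irf8, a lineage factor that can act with IRF1, fell from 161 ± 5.96 to 84.3 ± 1.84 CPM (-0.93).

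Most other antiviral effectors rose and a few fell. Of 24 tested, 18 were higher, 3 lower and 3 did not pass, with a median log2 fold change of 2.35. The share called higher was 75.0%, against 24.2% over all tested genes. The largest rises were Ifi44 (6.49), Cmpk2 (5.47), Ch25h, which makes an antiviral oxysterol (4.72), the helicase gene Ddx60 (4.17) and Ifi27l2a (3.05). Serinc5 and Serinc3, membrane proteins that lower the infectivity of retrovirus particles, fell. Serinc5 went from 31.9 ± 0.976 to 8.83 ± 0.562 CPM (-1.85, SE 0.16, adjusted p = 3.03e-06) and Serinc3 from 1244 ± 3.23 to 700.4 ± 46.4 CPM (-0.83, adjusted p = 2.82e-05).

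SAMHD1 and viperin both act on nucleotides, so the genes that make and recycle deoxynucleotides were listed. Of 16 tested, 6 were higher, 2 lower and 8 did not pass, and the median log2 fold change was 0.23. The 8 calls among 16 genes are near the 48.2% called over all tested genes. Besides Cmpk2, Dck, the kinase that salvages deoxycytidine, rose from 95.6 ± 3.05 to 335 ± 14.7 CPM (1.81, SE 0.098, adjusted p = 5.76e-08). Rrm2, the S-phase subunit of ribonucleotide reductase, rose from 67.4 ± 0.907 to 123 ± 1.21 CPM (0.86). Nme1 and Nt5c were called higher (0.67 and 0.57) and the thymidine kinase genes Tk1 and Tk2 lower (-0.48 and -0.36). Those 4 calls were lost without M0 replicate 1 (adjusted p = 0.0658, 0.139, 0.191 and 0.151) and without M0 replicate 2 (0.0547, 0.0523, 0.0931 and 0.194). Nt5c was also lost without M1 replicate 1 (0.0522), and Tk1 and Tk2 without M1 replicate 2 (0.116 and 0.192).

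Tested family relatives of some members gave smaller or opposite differences for the most part. Of 18 listed, 12 were in the count files and 9 were tested. The tested genes are related to the Mx genes, Rsad2, Isg20 or Shisa5, and Rtp1, Rtp2 and Rtp3 were not in the files. Of the 9 tested, 4 were higher, 1 lower and 4 did not pass, with a median log2 fold change of 0.20. Higher calls made up 44.4% of the tested relatives, against 24.2% of all tested genes. Calls in either direction, 48.2% of all tested genes, were near that share here. Among genes related to Shisa5, Shisa3 rose from 2.50 ± 0.965 to 25.3 ± 2.84 CPM (3.35, SE 0.26, adjusted p = 1.12e-06), while Shisa9, with 250 and 209 counts in M0, had none in either M1 library. Taking 3 counts over the M1 group as the limit, Shisa9 was at least 130-fold lower. Aen, an exonuclease gene related to Isg20, rose from 27.0 and 29.4 to 49.1 and 51.2 CPM (0.83), and Isg20l2 did not pass (0.17). The dynamin genes Dnm1l and Dnm2 were called higher by 0.40 and 0.26, calls lost without M0 replicate 1 (adjusted p = 0.0783 and 0.185) and without M0 replicate 2 (0.105 and 0.179). Dnm2 was also lost without M1 replicate 1 (0.106) or M1 replicate 2 (0.0588), and in 8 of 12 alternatives in all. Dnm1, Opa1 and Rsad1 did not pass, with log2 fold changes of 0.20, -0.16 and -0.32.

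**Figure D4:**
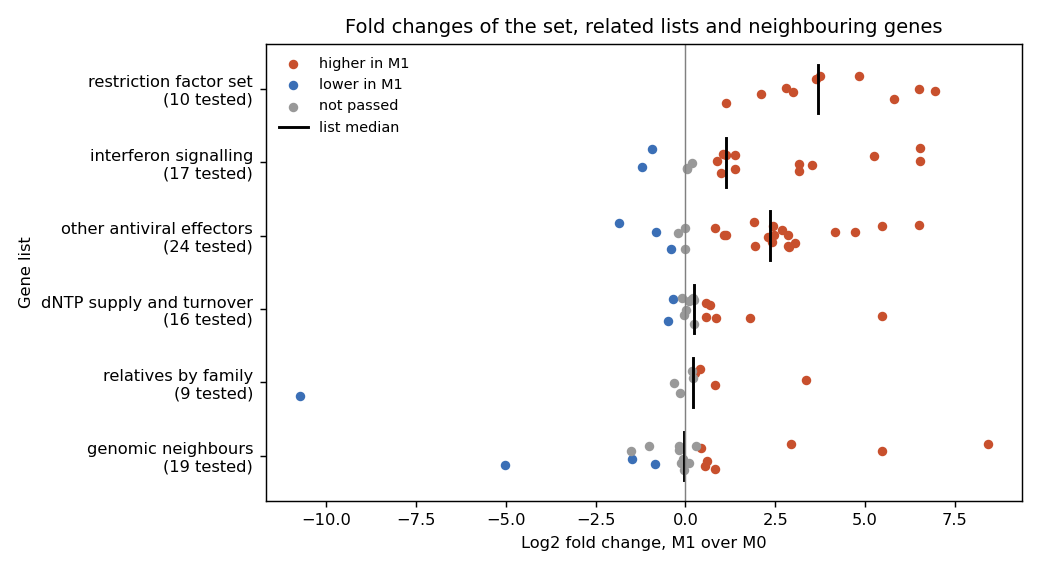
Log2 fold change of M1 over M0 of each tested gene in the set, the 4 related lists and the genes next to members, with colour for the call and a black bar for the list median. Medians run from 3.69 in the set to -0.04 among neighbouring genes, and the far points Shisa9 (left) and Fam3b (right) had no count in one group, so their fitted values depend on the prior count.

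Genes next to the members moved both ways. The nearest tested gene on each side gave 19 genes, of which 7 were higher, 3 lower and 9 did not pass, with a median log2 fold change of -0.04. As a share, these calls are near the 48.2% of all tested genes. Fam3b lies in the 72.4 kb between Mx1 and Mx2. No M0 library counted it, and the M1 libraries held 38 and 41 counts. Against 3 counts over the M0 group, Fam3b was at least 30.9-fold higher. On the sides of Rsad2, Cmpk2 rose as given above, and Rnf144a, with 43 and 8 counts in M0 and 183 and 146 in M1, rose by 2.95. Its log2 fold change was 4.43 when M0 replicate 1 was left out and 2.30 when M0 replicate 2 was. Aen, 2215 bases from Isg20, is both its relative and its neighbour.

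Some neighbours fell beside a member that rose. Vat1 lies 47 bases from Ifi35 and went from 310 and 324 CPM in M0 to 107 and 118 CPM in M1 (-1.49, SE 0.099, adjusted p = 3.29e-07). St6gal1, a sialyltransferase gene 159.9 kb from Rtp4, went from 74.0 and 72.0 to 1.91 and 2.58 CPM (-5.02, adjusted p = 1.81e-09). Soga1, beside Samhd1, fell by 0.84 on the log2 scale, but did not pass once M0 replicate 1 was dropped (adjusted p = 0.0884). Mvb12a, Rpl27 and Rbm43, beside Bst2, Ifi35 and Nmi, were called higher by 0.43, 0.55 and 0.61. Their calls were lost without M0 replicate 1 (adjusted p = 0.231, 0.229 and 0.104) and M0 replicate 2 (0.101, 0.0762 and 0.0696). Those of Mvb12a and Rpl27 were lost without M1 replicate 1 too (0.157 and 0.122), and Rpl27 without M1 replicate 2 (0.0573), by DESeq2 (0.0815) and with library totals (0.236). Itgb2l, Prdm15, Gtpbp3, Rbl1, Hapln3, Rif1, Bcl6, Pfkfb4 and Atrip did not pass, and the last of these lies 156 bases from Shisa5.

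The libraries held 15921466 to 18987705 counts, and 3 counts in a library correspond to 0.144 to 0.185 CPM. The 8 macrophage markers summed to 20680 to 22990 CPM in M0 and 29210 to 29690 CPM in M1. Most of it was Lyz2 (15500 ± 1523 CPM in M0 and 18080 ± 679.5 CPM in M1), which did not pass. Of the 8 markers, 4 were higher, 2 lower (Cd68 and Mertk) and 2 did not pass. Of 8 neutrophil markers, 7 were tested, 5 were lower and 1 higher, and they summed to 236 to 248 CPM in M0 and 110 to 149.5 CPM in M1. The 5 stromal markers summed to 677 to 699 CPM in M0 and 448 to 502 CPM in M1, with 2 higher (Col3a1 and Dcn) and 3 lower (Col1a1, Col1a2 and Pdgfra). Of 6 conventional dendritic cell markers, 4 were tested, with Ccr7 and Xcr1 higher and Zbtb46 and Cd209a lower, and the 6 summed to 3.36 to 3.93 CPM in M0 and 6.46 to 9.42 CPM in M1. The 8 T and NK cell markers summed to 21.6 to 22.4 CPM in M0 and 4.8 to 5.23 CPM in M1, most of it Cd4, which fell from 449 and 368 to 74 and 80 counts, while Cd3g, Ncr1 and Prf1 had none. B and plasma cell markers summed to 4.58 to 5.37 CPM in M0 and 1.23 to 3.94 CPM in M1, most of it Cd79b, which did not pass, and Ms4a1 had no count. The part of other cells in the members' levels was not tested, and in such bulk samples a change in the number of cells of a type cannot be told apart from a change in RNA per cell.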

How the data were processed

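The authors deposited raw counts, 1 value per gene symbol and library. The submitters' processing notes name mm10, featureCounts, Subread 2.0.1, DESeq2 1.30.1 and R 4.0.4. Annotation, strand setting and gene filter are not given in the sources used here. Library totals ran from 15921466 to 18987705 counts, and intervals on counts cover counting error only. In R 4.3.3 with edgeR 4.0.16, filterByExpr kept 12966 of 18256 genes at a minimum count of 10 and a minimum total of 15. After TMM scaling, the quasi-likelihood test took group as its only term. Its p-values were adjusted by Benjamini-Hochberg across the 12966 genes, and 0.05 was the threshold. The method was tested on simulated data. CPM was computed on totals times TMM factors and is given per library or as mean ± SD (n = 2). Gene positions, exons and overlaps come from GENCODE M21 (GRCm38, the assembly that mm10 names), in which 17855 symbols (97.8%) were found. Start-site windows come from RefSeq on GRCm38.p6, with no entry for Mx1, Mx2 and Rtp4. Some genes of the lists are counted in them but not reported here.

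The members and lists were chosen with earlier results of these data known. Named genes are all members, up to 5 called genes with the largest change and up to 2 in the opposite direction per list, all tested relatives and all neighbours. Ifnar1, Ifnar2, Ifngr2, Jak1, Jak2, Irf9, Irf1, Ifnb1, Ifng and the marker genes were named outside that rule after their values were seen. The alternatives were other scalings, DESeq2 1.42.0, limma-voom (limma 3.58.1), other filters, a replicate block and each library left out.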

Additional observations from a re-analysis of the deposited data

How the results depend on the processing

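All 10 members stayed higher in M1 under all 12 alternatives, with adjusted p of at most 0.00763. With library totals in place of TMM, the median over tested genes shifted by -0.252 on the log2 scale, with 2026 higher and 4776 lower genes (29.8% of calls higher, against 50.3%), 5 lower other antiviral effectors, 2 higher and 3 lower relatives and 5 lower neighbours. It also turned Dnm1 (-0.051), Isg20l2 (-0.079) and Atrip (-0.155), none of them called. The calls of Nt5c, Mvb12a and Dnm1l were lost with library totals (adjusted p = 0.0995, 0.288 and 0.252). Deoxynucleotide genes called lower numbered 1 with DESeq2 and 1 with the replicate block. The call of Tk2 was the one lost (adjusted p = 0.0741 and 0.0647). With libraries left out in turn, calls over all genes ranged from 1691 to 2965 higher and 1463 to 2854 lower, the fewest without M0 replicate 1 (1691 and 1463) and M0 replicate 2 (1832 and 1549). Deoxynucleotide genes ranged from 3 to 6 higher and 0 to 2 lower, relatives from 2 to 3 higher and neighbours from 4 to 6 higher. Genes that did not pass changed sign there: Dnm1 ranged from -0.233 to 0.771 (-0.217 without M1 replicate 1), Bcl6 from -0.147 to 0.041 (0.026 without M1 replicate 1), Pfkfb4 from -0.134 to 0.066 and Gtpbp3 from -0.265 to 0.015. The cause of these shifts was not tested. The same replicate numbers do not pair the libraries by any label, and same-numbered deviations correlated at -0.143. The replicate block gave 2957 higher and 2975 lower genes and kept all 10 members higher, and the crossed replicate block, added after seeing the data, gave 3648 and 3627. Of 52 genes followed outside the set, 20 changed call or sign under some alternative. No sample group was large enough to test for outlying libraries.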
